A study of Mus musculus with 6 samples.

Results

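The gene of the transcription factor p53, Trp53, and 9 genes that it binds and switches on were followed in immortalised mouse macrophages. The 10 genes are Trp53, Mdm2, Cdkn1a, Plk2, Pmaip1, Bbc3, Bax, Sesn1, Ccng1 and Zmat3. They were taken by symbol, through the gene identifiers, from 54532 identifiers in the deposited tables. All 10 were found, each under 1 identifier, and all 10 were among the 10634 genes with a mean level of at least 1 FPKM (fragments mapped to a gene, scaled by its length and by library depth), the level required for testing. The cells were an immortalised line of bone marrow-derived macrophages (iBMDM). In 3 libraries a short hairpin RNA lowered PGAM5, a protein phosphatase of mitochondria, and in the other 3 a hairpin lowered DRP1, the GTPase that divides mitochondria and is encoded by Dnm1l. Both groups had received IL-4 at 10 ng/ml for 24 h. None of the 6 libraries carried a non-targeting hairpin or lacked IL-4. Each difference below thus sets the PGAM5 knockdown against the DRP1 knockdown and cannot tell which of the knockdowns moved. The words rose and fell mean only a level higher or lower in the PGAM5 knockdown than in the DRP1 knockdown. What the numbers 1 to 3 within a group stand for, cultures or hairpins, is not in the labels. The p-values therefore rest on the spread among these libraries alone, and that spread may be technical.

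p53 is kept low in unstressed cells by MDM2, a ubiquitin ligase that marks it for destruction and is itself a p53 target, which makes a feedback loop. When DNA damage or another stress frees p53 from MDM2, it binds response elements near its target genes. The products then halt the cell cycle (the CDK inhibitor p21, encoded by Cdkn1a), start cell death at mitochondria (BAX and the BH3-only proteins PUMA and NOXA, encoded by Bbc3 and Pmaip1) or temper growth and oxidative stress (Sestrin 1). p53 protein is regulated mostly by its stability, which transcript levels do not show. Several of these targets, Plk2, Pmaip1 and Cdkn1a among them, are also known to respond to factors other than p53.

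Depth, recovered from the values, was 16326408 to 18313292 reads in the PGAM5 knockdown libraries and 16111279 to 21933541 in the DRP1 knockdown libraries. Both targeted genes were lower where they were targeted. Pgam5 had 4.91 ± 0.31 FPKM in the PGAM5 knockdown, against 17.2 ± 0.14 in the DRP1 knockdown, and Dnm1l at 17.9 ± 0.75 and 7.57 ± 0.55 FPKM in the same order (SD, n = 3 each). Of 9 macrophage markers 8 passed the level filter, the exception being Mertk, and the 9 summed to 3763 to 3934 FPKM in the PGAM5 knockdown, against 4814 to 4857 in the DRP1 knockdown. This sum thus moved with the groups, and its part in the results below was not tested. The markers did not all move with it. Lyz2 (1272 against 1954 FPKM), Cd68 (501 against 682), Csf1r and Fcgr1 were lower at a limma adjusted p under 0.05. Adgre1, Spi1, Itgam and Cd14 did not pass. None of 32 markers of 7 other cell types passed the level filter, and 18 of them were at 0 in every library. The 32 summed to 0.957 to 1.30 FPKM in the PGAM5 knockdown, against 1.41 to 1.43 in the DRP1 knockdown. PGAM5 knockdown library 3 stood furthest from its group. On the median gene, the squared difference in read counts between it and libraries 2 and 1 was 3.50 and 4.29 times what sampling noise gives. For the other pairs within a group it was 1.70 to 1.85 times.

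The regions around the starts of these genes were searched for letters that p53 is known to bind. RefSeq gave 12 start regions (250 bases before to 50 after a start, build GRCm38.p6, the assembly behind mm10) for 8 of the 10 genes. No start region was available for Pmaip1 or Zmat3, so these genes were not searched. The 12 regions were searched on both strands for the p53 response element, a 20-base site made of a repeated, palindromic 10-base unit. The C and G of each unit's core were required, with at most 3 other mismatches. Because the element is its own reverse complement in form, a match on one strand is a match on the other. Matches stood in 5 of the 12 regions, and they are printed here because they are the stretches most like the p53 site in these regions:
Cdkn1a: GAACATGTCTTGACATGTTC
Ccng1: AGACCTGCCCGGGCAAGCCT
Trp53: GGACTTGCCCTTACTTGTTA
Bbc3: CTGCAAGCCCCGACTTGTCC
Sesn1: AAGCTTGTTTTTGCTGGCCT
The elements of Cdkn1a and Ccng1 had 1 mismatch, and those of Trp53, Bbc3 and Sesn1 had 3. For Cdkn1a only region 1, its upstream start, held a match, and region 2 held none. Bbc3 had its match in region 1 and none in regions 2 and 3. Sesn1 had its match in region 2 and none in region 1. Of all 32851 start regions in the RefSeq table, 0.067% held a match with at most 1 mismatch and 1.38% one with at most 3. A match is a stretch of letters and not proof of binding, and a region without one says only that these letters are not in that window.

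**Figure D1:**
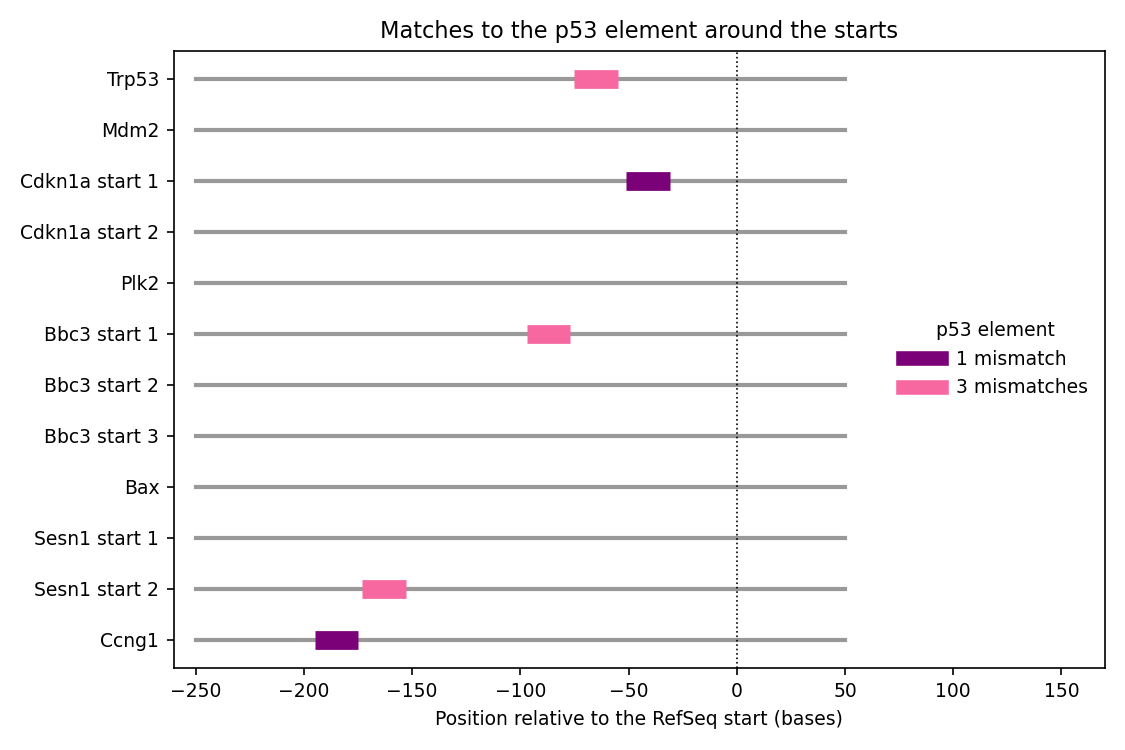
Positions of the p53 element in the 12 RefSeq start regions of 8 genes, in bases relative to the start (0), with dark bars for 1 mismatch and light bars for 3. The match of Cdkn1a begins 51 bases before its upstream start and that of Ccng1 195 bases before its start, while Mdm2, Plk2 and Bax show none in this window.

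The whole start regions of 4 genes are given, 1 for each gene. Those of Cdkn1a and Ccng1 held the elements with 1 mismatch. Trp53 is the gene of p53 itself, and the difference of Plk2 was among the largest of the 10. Letters in capitals mark the element. They lie at chr17:29090729-29091028 (plus strand) for the upstream start of Cdkn1a, chr11:40755237-40755536 (minus strand) for Ccng1, chr11:69580109-69580408 (plus strand) for Trp53 and chr13:110394794-110395093 (plus strand) for Plk2.
Cdkn1a: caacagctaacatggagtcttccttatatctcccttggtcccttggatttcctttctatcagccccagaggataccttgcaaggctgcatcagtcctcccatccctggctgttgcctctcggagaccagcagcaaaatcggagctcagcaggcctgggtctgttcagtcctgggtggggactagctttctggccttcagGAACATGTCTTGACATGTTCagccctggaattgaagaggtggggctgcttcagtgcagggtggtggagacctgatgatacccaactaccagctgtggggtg
Ccng1: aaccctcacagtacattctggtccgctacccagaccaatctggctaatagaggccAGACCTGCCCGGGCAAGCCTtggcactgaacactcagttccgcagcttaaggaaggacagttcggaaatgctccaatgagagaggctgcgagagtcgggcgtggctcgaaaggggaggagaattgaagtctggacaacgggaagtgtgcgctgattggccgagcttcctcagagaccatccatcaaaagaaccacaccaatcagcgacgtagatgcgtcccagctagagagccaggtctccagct
Trp53: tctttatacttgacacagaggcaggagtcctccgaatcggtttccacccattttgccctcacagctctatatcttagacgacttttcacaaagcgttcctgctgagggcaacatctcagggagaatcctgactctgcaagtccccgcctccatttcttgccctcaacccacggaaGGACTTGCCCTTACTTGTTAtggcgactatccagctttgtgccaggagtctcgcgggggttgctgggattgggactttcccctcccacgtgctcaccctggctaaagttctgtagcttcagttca
Plk2: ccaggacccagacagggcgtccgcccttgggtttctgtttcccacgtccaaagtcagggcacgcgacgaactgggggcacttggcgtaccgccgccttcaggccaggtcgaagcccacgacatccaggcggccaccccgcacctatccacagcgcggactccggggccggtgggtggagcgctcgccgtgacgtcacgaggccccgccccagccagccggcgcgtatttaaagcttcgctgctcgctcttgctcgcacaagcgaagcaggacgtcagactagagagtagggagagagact

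The 10 genes did not move as a group. At a limma adjusted p under 0.05, 4 were higher in the PGAM5 knockdown (Plk2, Pmaip1, Cdkn1a and Bbc3), 3 were lower (Trp53, Ccng1 and Zmat3), and Mdm2, Bax and Sesn1 did not pass. Over all genes tested, 25.4% were called, 13.8% higher and 11.7% lower. The median log2 difference of the 10 genes was 0.077, against 0.0094 over all genes tested. Levels of the groups did not overlap for 8 of the 10 genes, which was also true of 43.5% of all genes tested. Without PGAM5 knockdown library 3, the counts were again 4 higher and 3 lower. Bulk libraries cannot tell fewer expressing cells from less RNA per cell.

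**Figure D2:**
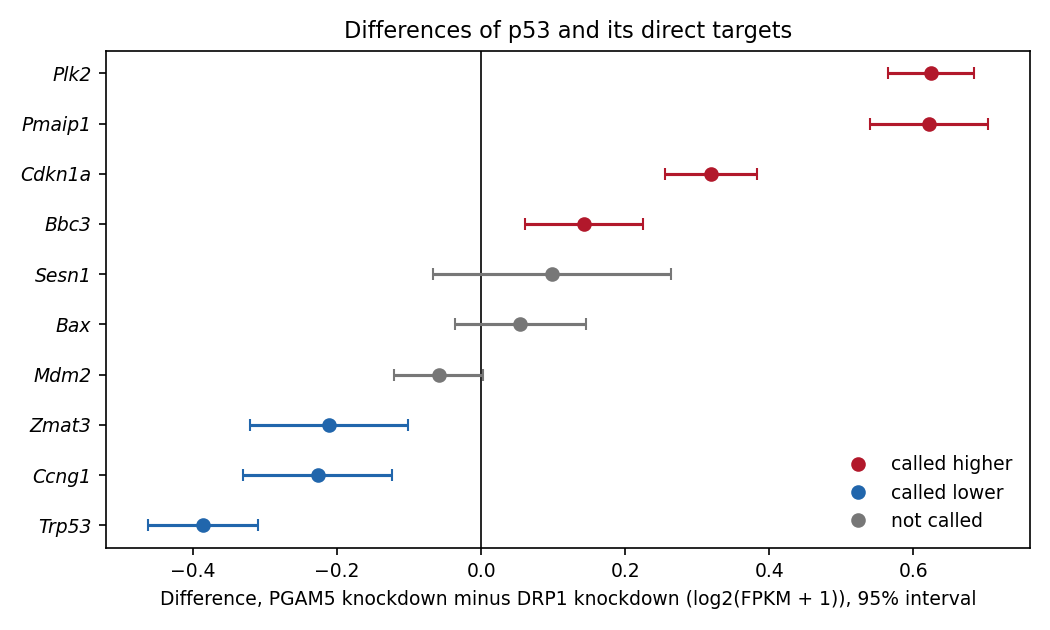
Log2(FPKM + 1) of each gene in the PGAM5 knockdown less that in the DRP1 knockdown, with its 95% confidence interval from limma (3 libraries per group). The genes run from Plk2 at 0.63 to Trp53 at -0.39, and the intervals of Sesn1, Bax and Mdm2 include 0.

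Trp53 (ENSMUSG00000059552, chromosome 11, 69580359 to 69591873, plus strand, mm10) was lower in the PGAM5 knockdown. Its level was 35.4, 34.2 and 34.2 FPKM in the PGAM5 knockdown libraries, against 44.3, 45.9 and 46.5 FPKM in the DRP1 knockdown libraries. All libraries of the PGAM5 knockdown lay below all of the DRP1 knockdown, by a gap several times the spread within either group. The means of 34.6 ± 0.72 and 45.6 ± 1.14 FPKM (SD, n = 3 each) made the level 24.0% lower, a log2 difference of -0.39 (SE 0.033, limma adjusted p = 0.000274). The exact permutation p was 0.1, the smallest that 3 libraries against 3 can give, and it was 0.1 for every gene below whose groups did not overlap. The pseudogene Trp53-ps matched 10.8% of the longest Trp53 transcript and stood at 0.658 to 0.949 FPKM in the PGAM5 knockdown, against 0.534 to 1.17 in the DRP1 knockdown. These levels overlapped and were small beside those of Trp53. Trp53 held its call in all 13 other ways of fitting the data, at adjusted p up to 0.0044.

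Mdm2 (ENSMUSG00000020184, chromosome 10, 117688875 to 117710758, minus strand), the ligase gene in the feedback loop, had 60.6, 61.5 and 61.3 FPKM in the PGAM5 knockdown, against 63.0, 63.6 and 64.7 FPKM in the DRP1 knockdown. The groups did not overlap, yet the means of 61.2 ± 0.46 and 63.8 ± 0.85 FPKM differed by only 4.08% of the DRP1 knockdown level. The log2 difference of -0.059 (95% interval -0.121 to 0.0026, limma adjusted p = 0.146) did not pass. It did not pass in any of the 13 alternatives either, the lowest adjusted p being 0.059. The interval leaves no room for a change of the size seen in Trp53. Known p53 sites of Mdm2 lie inside the gene, beyond the window searched above.

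Of the arrest genes, Cdkn1a (ENSMUSG00000023067, chromosome 17, 29090976 to 29100727, plus strand) was higher in the PGAM5 knockdown, with 62.9, 61.0 and 61.7 FPKM against 49.9, 48.8 and 49.5 FPKM in the DRP1 knockdown. The lowest PGAM5 knockdown library thus lay 11 FPKM or more above the highest DRP1 knockdown library. The mean was 25.3% higher (log2 difference 0.32, SE 0.027, limma adjusted p = 0.00029). An unnamed transcript on the opposite strand, AC167363.2, shares 273 exonic bases with Cdkn1a, and the strand setting of the counting is not given. Its level was 0.365 to 0.700 FPKM in the PGAM5 knockdown, against 0.218 to 1.01 in the DRP1 knockdown, overlapping and far below Cdkn1a.

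Plk2 (ENSMUSG00000021701, chromosome 13, 110395046 to 110400844, plus strand) encodes a polo-like kinase induced by p53 and by serum and stress signals. On the log2(FPKM + 1) scale its difference exceeded that of 97.7% of all genes tested in absolute size. It was level with that of Pmaip1, described below, at 0.625 for Plk2 and 0.622 for Pmaip1. The order of the pair is not fixed, since Pmaip1 had the larger fold of mean FPKM (1.57, against 1.55 for Plk2). Pmaip1 also had the larger log2 difference in 6 of 13 alternatives, among them a pseudocount of 0.1, quantile normalization and voom. Voom used rounded reads for Pmaip1, for which no whole reads came out. The Plk2 libraries read 81.4, 81.0 and 80.1 FPKM in the PGAM5 knockdown, against 51.6, 52.4 and 52.2 FPKM in the DRP1 knockdown. The gap between the groups was many times the spread within either. The mean was 1.55-fold higher (log2 difference 0.63, SE 0.025, limma adjusted p = 1.49e-05). Its start region, printed above, held no p53 element under this search.

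Ccng1 (ENSMUSG00000020326, chromosome 11, 40748552 to 40755311, minus strand) encodes cyclin G1, which recruits a phosphatase to MDM2 and is among the most widely reported p53 targets. It was lower in the PGAM5 knockdown, at 21.2, 21.4 and 22.3 FPKM against 26.1, 24.0 and 26.4 FPKM in the DRP1 knockdown. The groups did not overlap, although DRP1 knockdown library 2 came within 2 FPKM of the PGAM5 knockdown. The means of 21.6 ± 0.60 and 25.5 ± 1.26 FPKM gave a log2 difference of -0.23 (SE 0.044, limma adjusted p = 0.0094), which held in all 13 alternatives. Cdkn1a, whose upstream start region also held an element with 1 mismatch, was higher. Whether these elements bear on the levels was not tested.

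Among the genes of mitochondrial cell death, Pmaip1 (ENSMUSG00000024521, chromosome 18, 66458533 to 66465565, plus strand), which encodes the MCL-1 antagonist NOXA, was higher. It had 24.9, 25.4 and 24.7 FPKM in the PGAM5 knockdown, against 16.3, 15.3 and 16.1 FPKM in the DRP1 knockdown. No library came near the other group. The fold was 1.57 and the log2 difference 0.62 (SE 0.035, limma adjusted p = 4.69e-05).

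Bbc3 (ENSMUSG00000002083, chromosome 7, 16308393 to 16318205, plus strand), the gene of PUMA, which binds all the anti-apoptotic BCL-2 proteins, was also higher but by little. Its levels were 75.6, 81.5 and 79.3 FPKM in the PGAM5 knockdown, against 70.6, 70.5 and 72.6 FPKM in the DRP1 knockdown. PGAM5 knockdown library 1 lay only about 3 FPKM above the highest DRP1 knockdown library. The difference of 0.14 (SE 0.035, limma adjusted p = 0.0228) lost its call when PGAM5 knockdown library 2 was left out (0.073), without DRP1 knockdown library 1 (0.082), 2 (0.083) or 3 (0.052), and without the mean-variance trend (0.051). Over all 13 alternatives its adjusted p ran from 0.013 to 0.083.

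Bax (ENSMUSG00000003873, chromosome 7, 45461697 to 45466898, minus strand), which encodes the protein that opens the outer mitochondrial membrane, was the most abundant of the 10. It had 175, 174 and 191 FPKM in the PGAM5 knockdown, against 172, 173 and 175 FPKM in the DRP1 knockdown. The groups overlapped, and only PGAM5 knockdown library 3 lay apart, above the rest. The log2 difference of 0.055 (95% interval -0.036 to 0.145, limma adjusted p = 0.344) did not pass. A read-through gene on the same strand, Gm45808, shares 192 exonic bases with Bax, and it was listed at 0 in all 6 libraries.

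**Figure D3:**
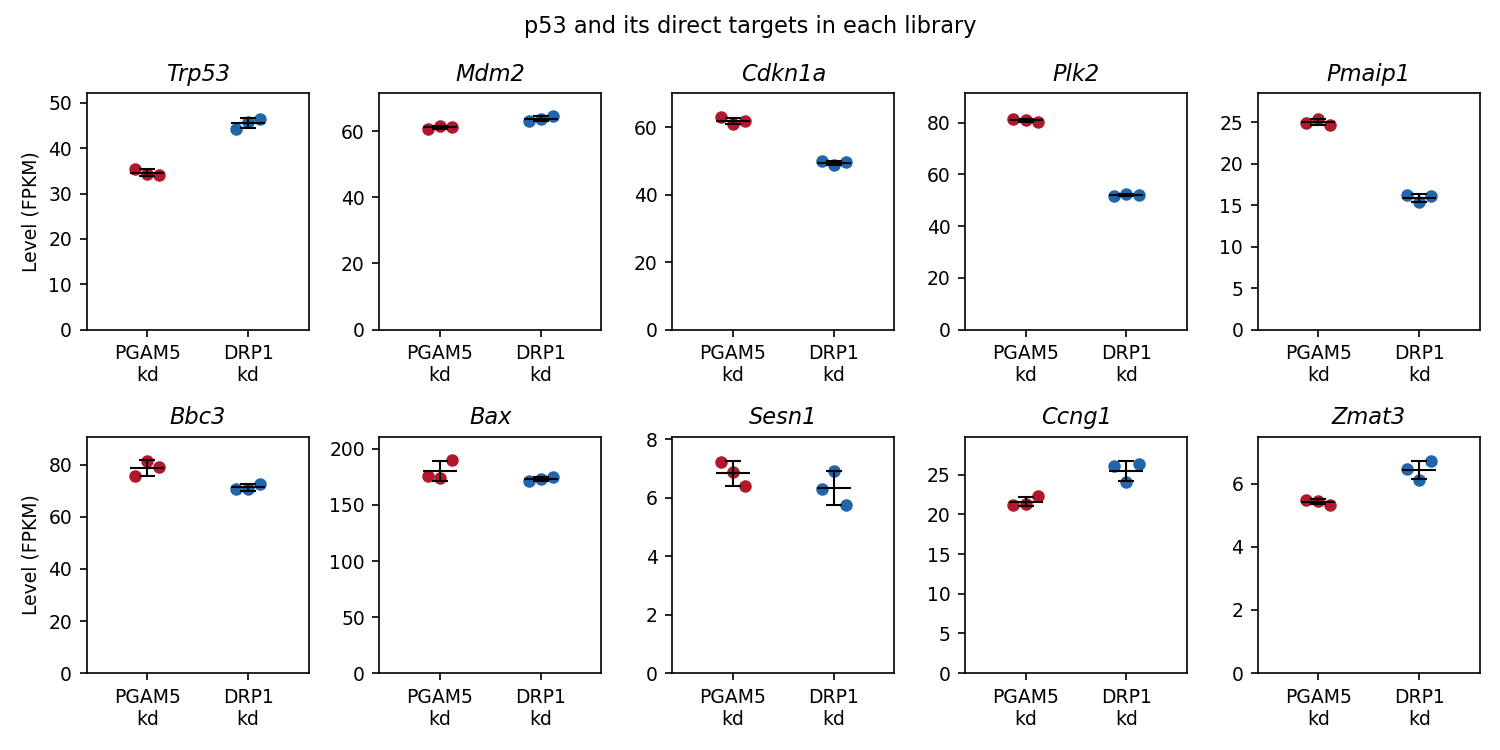
Level of each of the 10 genes in every library in FPKM, from 0, with PGAM5 knockdown libraries on the left and DRP1 knockdown libraries on the right of each panel. Points are libraries, and the bars give the mean and SD of 3. The groups lie well apart for Plk2 (81.4, 81.0 and 80.1 against 51.6, 52.4 and 52.2 FPKM) and overlap for Bax and Sesn1.

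The metabolic and RNA-binding targets were the least abundant. Sesn1 (ENSMUSG00000038332, chromosome 10, 41809935 to 41908424, plus strand), whose product restrains the growth kinase mTORC1, had 7.24, 6.89 and 6.39 FPKM in the PGAM5 knockdown, against 6.31, 6.91 and 5.76 FPKM in the DRP1 knockdown. The groups overlapped and the log2 difference of 0.099 did not pass (95% interval -0.066 to 0.264, limma adjusted p = 0.349). That interval is the widest of the 10 and would still hold a rise or a small fall. Sesn1 rested on 405 to 512 reads per library, the fewest among the 9 genes whose reads could be counted back.

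Zmat3 (ENSMUSG00000027663, chromosome 3, 32334792 to 32366014, minus strand), which encodes a zinc finger protein that binds RNA, was lower. It stood at 5.49, 5.45 and 5.33 FPKM in the PGAM5 knockdown, against 6.47, 6.13 and 6.71 FPKM in the DRP1 knockdown. No libraries overlapped, and the spread was wider in the DRP1 knockdown. The log2 difference was -0.21 (SE 0.047, limma adjusted p = 0.0158). Its call was lost without DRP1 knockdown library 1 (0.058) or library 3 (0.064).

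The order of the levels also differed between the groups in places. In the PGAM5 knockdown it ran Bax, Plk2, Bbc3, Cdkn1a, Mdm2, Trp53, Pmaip1, Ccng1, Sesn1 and Zmat3, where libraries of Plk2 and Bbc3 overlapped, as did those of Cdkn1a and Mdm2. In the DRP1 knockdown it ran Bax, Bbc3, Mdm2, Plk2, Cdkn1a, Trp53, Ccng1, Pmaip1, Zmat3 and Sesn1, and only Zmat3 and Sesn1 overlapped. Plk2 lay above Mdm2 in all PGAM5 knockdown libraries and below it in all DRP1 knockdown libraries, and Pmaip1 and Ccng1 changed places in the same way. Places between genes rest on the length given to each gene. For Pmaip1 no whole reads came out, so the length behind its values could not be checked.

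Ratios within a library do not depend on how libraries are scaled to each other. These were chosen after the levels had been seen. Cdkn1a to Trp53 was 1.77, 1.78 and 1.80 in the PGAM5 knockdown, against 1.13, 1.06 and 1.06 in the DRP1 knockdown. Plk2 to Trp53 was 2.30, 2.37 and 2.35 in the PGAM5 knockdown, against 1.17, 1.14 and 1.12 in the DRP1 knockdown, 2.04-fold higher on the mean. Mdm2 to Trp53 was 1.71, 1.80 and 1.79 in the PGAM5 knockdown, against 1.42, 1.39 and 1.39 in the DRP1 knockdown. Each of these ratios was higher in all libraries of the PGAM5 knockdown, and the exact permutation p was 0.1 for each. For Cdkn1a and Plk2 this followed from the levels above, since both were higher and Trp53 lower without overlap. Mdm2 was itself lower in the PGAM5 knockdown, but by less than Trp53. The ratios thus restate the levels and add no separate evidence.

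The other genes of the pathway were described by lists written from textbook knowledge. Of 18 tested regulators of p53, none rose by limma (1, Rpl11, at an unadjusted p under 0.05, and 1 by voom), 2 fell and 16 did not pass. The share called was 11.1%, against 25.4% of all genes tested, and the median log2 difference was -0.011. Hipk2, a kinase that phosphorylates p53 after DNA damage, fell to 5.15 ± 0.63 FPKM in the PGAM5 knockdown, against 8.02 ± 0.14 in the DRP1 knockdown, with 5.60, 5.41 and 4.42 against 8.13, 7.86 and 8.07 FPKM in the libraries. That is a log2 difference of -0.56 (SE 0.076, limma adjusted p = 0.00225), and the call held in all 13 alternatives. Chek2, the checkpoint kinase CHK2, fell to 2.02 ± 0.17 FPKM in the PGAM5 knockdown, against 2.53 ± 0.12 in the DRP1 knockdown, and passed only narrowly (limma adjusted p = 0.0491). Its call was lost when any 1 of the 6 libraries was left out and held in only 3 of 13 alternatives. Rpl5, a ribosomal protein that can bind and block MDM2 and the most abundant gene of the list, had 355 ± 29.2 and 336 ± 4.83 FPKM in the PGAM5 and DRP1 knockdowns and did not pass (limma adjusted p = 0.356).

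The 3 listed regulators below the filter were Cdkn2a and the p53 relatives Trp63 and Trp73. Cdkn2a, whose ARF product inhibits MDM2, was at 0 in 5 libraries and at 0.039 FPKM in DRP1 knockdown library 3. The limit that a count of 0 allows is 3 reads, at most 0.159 FPKM for this gene. Trp63 was at 0 in all 6 libraries, which allows at most 0.022 FPKM, and Trp73 did not exceed 0.025 FPKM. Wrap53, which lies beside Trp53 on the opposite strand and shares no exonic base with it in the annotation used, had 4.31, 4.10 and 5.40 FPKM in the PGAM5 knockdown, against 6.86, 5.95 and 5.46 in the DRP1 knockdown. It was chosen after its values had been seen, and its log2 difference of -0.34 did not pass (limma adjusted p = 0.0513).

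Of 31 further p53 targets, 21 were tested, 4 rose, 1 fell and 16 did not pass. The share called, 23.8%, was close to the 25.4% of all genes tested, and the median log2 difference was -0.012. Gdf15, a stress cytokine gene that ATF4 also drives, had 33.7, 33.1 and 35.3 FPKM in the PGAM5 knockdown, against 22.7, 23.7 and 23.4 FPKM in the DRP1 knockdown. The groups lay well apart, and the mean was 1.46-fold higher (log2 difference 0.53, SE 0.037, limma adjusted p = 0.000109). The other genes that rose did so by less, Plk3 among them, which is given with the paralogs below. Tap1, a peptide transporter gene of antigen presentation that interferon also drives, and Ephx1, the microsomal epoxide hydrolase gene, rose by 0.35 and 0.31. Those calls held in 7 and 8 of 13 alternatives. The call of Tap1 was lost without any 1 library other than library 3 of the PGAM5 knockdown, and that of Ephx1 without library 2 or 3 of the PGAM5 knockdown or 1 or 3 of the DRP1 knockdown. Phlda3, which encodes an inhibitor of AKT, was the 1 that fell, to 7.13 ± 0.24 FPKM in the PGAM5 knockdown, against 8.84 ± 0.19 in the DRP1 knockdown (log2 difference -0.28, limma adjusted p = 0.00356). Without library 2 of the PGAM5 knockdown, 2 rose, and likewise without library 1 or 3 of the DRP1 knockdown.

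Partners on which the target products act were mostly higher where they were called. The 26 tested genes were those of cyclins, CDKs and BCL-2 proteins, with Cdkn1b, Rb1, E2f1 and Pcna. Of these, 11 rose, Pcna among them, 2 fell and 13 did not pass. The share called was 50%, against 25.4% of all genes tested, and the median log2 difference was 0.16. Of 11 tested cyclin and CDK genes 5 rose and 6 did not pass (Ccne1, Ccne2, Ccna2, Ccnb1, Cdk2 and Cdk4). Cdk6 had 14.2 ± 0.80 FPKM in the PGAM5 knockdown, against 10.1 ± 0.080 in the DRP1 knockdown (log2 difference 0.45, limma adjusted p = 0.000627). Ccnd2 (0.44) and Ccnd3 (0.43), which encode D-type cyclins, and Cdk1 (0.37), the kinase of mitotic entry, rose on the same log2 scale. The fifth, Ccnd1 (0.16), held its call in only 4 of 13 alternatives. Bcl2a1b, which encodes an anti-apoptotic protein that binds NOXA, fell to 14.1 ± 0.23 FPKM in the PGAM5 knockdown, against 20.3 ± 2.35 in the DRP1 knockdown (log2 difference -0.49). It belongs to a cluster of near-identical genes, so reads may be split between copies or lost. Leaving out DRP1 knockdown library 1 or 2 left 7 and 6 that rose.

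**Figure D4:**
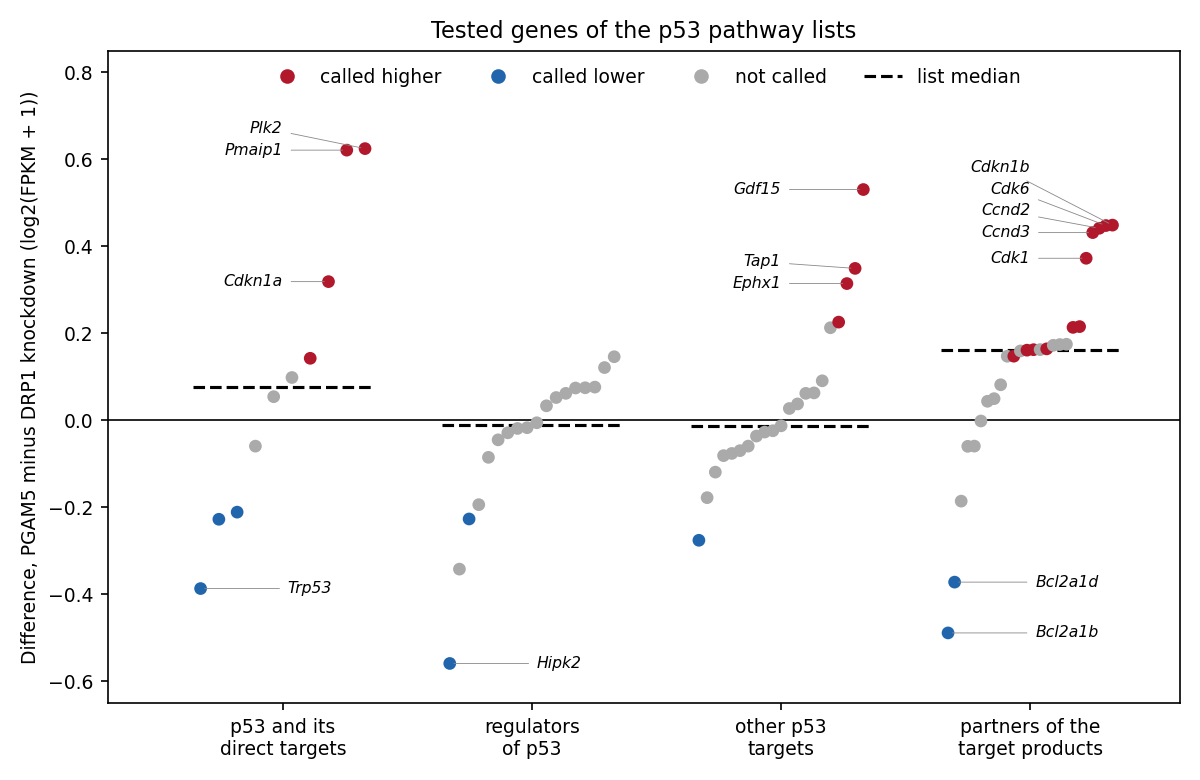
Log2(FPKM + 1) of each tested gene in the PGAM5 knockdown less that in the DRP1 knockdown, in the 10 genes and 3 lists of the pathway, with red and blue points for genes called higher and lower, grey for the rest, and dashed lines for list medians. The medians are 0.077, -0.011, -0.012 and 0.16, and Plk2 at 0.63 and Hipk2 at -0.56 lie furthest out.

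Paralogs of the 10 genes did not always follow them. Of 8 tested paralogs 3 rose, none fell by limma (0 also at an unadjusted p under 0.05) and 5 did not pass. The share called was 37.5%, against 25.4% of all genes tested. Mdm4, Plk3, Sesn2, Cdkn1b and Bak1 were also counted in the lists above, so this share is not separate from theirs. Ccng2, which encodes cyclin G2, had 4.30, 4.28 and 4.42 FPKM in the PGAM5 knockdown, against 1.81, 1.61 and 1.55 FPKM in the DRP1 knockdown, a 2.62-fold rise (log2 difference 1.01, SE 0.060, limma adjusted p = 6.03e-05), where Ccng1 fell. Cdkn1b, the gene of the CDK inhibitor p27, rose beside Cdkn1a (12.9 ± 0.62 against 9.19 ± 0.59 FPKM, log2 difference 0.45), and Plk3 rose beside Plk2 by less (16.3 ± 0.48 against 13.8 ± 0.42 FPKM, log2 difference 0.23). Plk1 (16.5 ± 0.76 and 16.7 ± 0.60 FPKM in the PGAM5 and DRP1 knockdowns) and Plk4 (5.33 ± 0.28 and 5.50 ± 0.079) did not pass. Sesn2, at 75.2 ± 4.56 and 71.8 ± 0.13 FPKM more abundant than Sesn1, did not pass either, nor did Mdm4 (6.66 ± 0.19 and 6.69 ± 0.42) or Bak1 (38.1 ± 0.90 and 39.7 ± 0.79). Of the other 5, Cdkn1c, Sesn3 and Bok were at 0 in every library, and Zmat1 and Zmat4 stayed below the filter, at most at 0.426 and 0.048 FPKM.

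The genes outside the 10 whose log2 levels followed those of Plk2 most closely over the 6 libraries were Ubald2, Eno2 and Tpi1. Likeness was the root mean square distance of log2(FPKM + 1) values centred on each gene, which was 0.0263, 0.0288 and 0.0303. Ubald2 stood at 105 ± 1.87 FPKM in the PGAM5 knockdown, against 66.6 ± 0.79 in the DRP1 knockdown, Eno2 at 32.1 ± 1.33 and 20.4 ± 0.34, and Tpi1 at 486 ± 11 and 321 ± 2.19. With 2 groups of 3 libraries, the distance reflects little more than the size of the difference between the groups.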

How the data were processed

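RNA-seq was done on 6 libraries, 3 per knockdown, grouped by their titles. Poly-A RNA was copied into cDNA from random primers, per the labels' protocols, which allow for a directional or a non-directional library without saying which was made. The authors deposited 1 FPKM value per gene and library. HISAT2 2.0.5, featureCounts 1.5.0-p3 and build mm10 are named, per the submitters' processing notes. For the annotation release and strand setting, the sources used here give nothing. Symbols, exons and lengths came from GENCODE M21, which held 54495 of the 54532 identifiers. Since FPKM is scaled to library totals, very abundant genes can shift all other values.

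Depths were recovered as the number that makes FPKM times exonic length whole, within 0.02 of a whole number for 96.1% of values above 0 in each library. For Pmaip1 no whole reads came out. Limits for a count of 0 are 3 reads and cover counting error only.

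The test, run on genes with a mean of at least 1 FPKM, was limma 3.58.1 on log2(FPKM + 1) values (R 4.3.3, empirical Bayes with trend, two-sided), adjusted by Benjamini-Hochberg over all 10634 genes tested, with a threshold of 0.05. This scale understates differences of low genes. Folds are ratios of mean FPKM. Single values had an exact two-sided permutation test. The fit was tested on simulated data with the same spread setting for all libraries, although PGAM5 knockdown library 3 stood apart here. That test thus does not bear on the calls above. Shared sequence was searched with blastn 2.17.0 at 97% identity over at least 100 bases. Near-identical genes were searched for the 10 genes only. Genes were named by rule: the 10 genes, both targets, up to 6 called genes per list by size of difference (the most abundant added to make 3), all tested paralogs and the 3 genes most like the called gene with the largest difference. Fits were repeated under 13 alternatives. A gene of the list of further targets is not reported here and enters none of that list's counts. The 10 genes and the lists were chosen with earlier results of these data known, so their counts support nothing beyond themselves, and the promoter search was set after the values were seen.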

Additional observations from a re-analysis of the deposited data

How the results depend on the processing

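All 10 genes kept the sign of their difference in all 13 alternatives, and Trp53, Cdkn1a, Plk2, Pmaip1 and Ccng1 kept their call in each. The count of the 10 genes called ran from 3 to 4 higher and 2 to 3 lower when 1 library was left out, and it was 3 higher without the trend. Over all genes, leaving out 1 library gave 980 to 1456 higher and 819 to 1287 lower. For regulators of p53 it gave 0 to 1 higher and 1 to 2 lower, for other targets 2 to 4 higher, and for partners 6 to 10 higher. Regulators called higher numbered 1 with voom on recovered reads, and regulators called lower numbered 1 with a pseudocount of 0.1, without the expression filter and with the replicate block. Without the filter, other targets numbered 2 higher and 2 lower. The causes were not tested. Quantile normalization moved the median of all genes from 0.0094 to -0.00065 and the share of calls that were higher from 54.1% to 49.0%.

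The numbers 1 to 3 did not pair the libraries: deviations from the group means of same-numbered libraries correlated at 0.0215, 0.031 and -0.00034. With the number as a replicate block, 1161 genes were higher and 972 lower, and 4 and 3 of the 10 genes. Not every library correlated best with its own number. Depth limits Cdkn2a and Trp73, which rest on few or no reads.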

Other observations

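The genes of BCL-2 proteins were looked at as a set after their values had been seen. Of 11 tested genes of BCL-2 proteins in the list of partners, 4 rose (Mcl1, Bcl2, Bcl2l2 and Bid) and 2 fell (Bcl2a1b and Bcl2a1d). The other 5 did not pass (Bcl2l1, Bcl2l11, Bcl2a1a, Bad and Bak1). Of all genes tested, 25.4% were called, 13.8% higher and 11.7% lower. Bcl2a1d stood at 32.8 ± 2.95 FPKM in the PGAM5 knockdown, against 42.6 ± 0.59 in the DRP1 knockdown (SD, n = 3 each), a log2 difference of -0.37 (limma adjusted p = 0.0043) whose call held in all 13 alternatives. It is one of the near-identical copies beside Bcl2a1b, so its reads are uncertain in the same way. Mcl1, which encodes the main partner of NOXA, had 191, 195.5 and 197 FPKM in the PGAM5 knockdown and 165, 170.4 and 167 FPKM in the DRP1 knockdown, with no overlap (log2 difference 0.21, SE 0.027, limma adjusted p = 0.00151). It rose in all 13 alternatives. Pmaip1 to Mcl1 within a library was 0.130, 0.130 and 0.125 in the PGAM5 knockdown and 0.0983, 0.0900 and 0.0961 in the DRP1 knockdown, while Bax to Mcl1 was 0.918, 0.892 and 0.967 in the PGAM5 knockdown and 1.04, 1.02 and 1.05 in the DRP1 knockdown. Pmaip1 to Mcl1 was higher and Bax to Mcl1 lower in every PGAM5 knockdown library (exact permutation p = 0.1 for each, the smallest possible). These ratios restate the levels and add no separate evidence, since Pmaip1 rose by more than Mcl1 and Bax by less (1.57-fold, 1.16-fold and 1.04-fold). Bcl2l2 and Bid rose by 0.16 each on the log2 scale, with the call of Bid lost without DRP1 knockdown library 2 (limma adjusted p up to 0.059) and that of Bcl2l2 lost in 4 of 13 alternatives. Bcl2 rose by 0.22, and its call was lost in 8 of 13 alternatives, among them the removal of any 1 of the 6 libraries.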
